A study of Homo sapiens with 24 samples.

Results

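Cholesterol and fatty acid synthesis was followed through 29 genes in HepaRG cells, human liver progenitors that can become hepatocytes or biliary cells. The members are the genes of a list of sterol and fatty acid synthesis genes whose RefSeq transcript is named by an array probe. Each of the 29 had a probe, stood well above background on all 24 arrays, and belongs to the 24648 genes tested. The list holds 17 enzymes of sterol synthesis, 8 enzymes of fatty acid synthesis, and 4 genes of regulation or sterol transport.

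Expression was measured on 24 one-colour Agilent arrays, 3 for each of 8 conditions. In 4 of the conditions the cells received no transfection, a scrambled control siRNA, siRNA against β-catenin, or FZD8_CRD, a soluble form of the part of the receptor Frizzled-8 that binds Wnt proteins. The other 4 conditions were the same with Wnt3a added. Both proteins were recombinant mouse proteins, given in serum-free medium for 72 h, Wnt3a at 200 ng/ml and FZD8_CRD at 300 ng/ml. The siRNAs (80 pmol) were electroporated into cells in suspension, and the cells given FZD8_CRD were not transfected, so that control siRNA and no transfection are the respective references. The paper describes the cultures as independent and done 3 times, the labels name no culture, and p-values measure the spread between these samples.

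Liver cells build cholesterol from acetyl-CoA through mevalonate, isoprenoid units, squalene and lanosterol, and build fatty acids from the same acetyl-CoA through malonyl-CoA, with elongation and desaturation as later steps. The SREBP transcription factors, held in the endoplasmic reticulum by INSIG proteins while sterols are plentiful, drive the genes of both arms, SREBP-2 mainly those for sterols and SREBP-1c mainly those for fatty acids. Serum-free medium supplies no lipoprotein cholesterol, and the liver is a main site of both pathways in the body.

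Values are log2 signals minus that of the array's 75th percentile, so that 0 is the percentile itself, and the values of a condition are listed in the order of arrays 1, 2 and 3. Arrays of the same number shared a slide. A gene was called when the limma fit over all genes gave a Benjamini-Hochberg adjusted p under 0.05, and SE is the standard error of the fitted log2 difference. Differences between backgrounds (control siRNA, β-catenin siRNA, FZD8_CRD) are averages over the states with and without Wnt3a, 6 arrays against 6. Wnt3a responses set 3 arrays against 3. The comparisons share arrays: the 6 arrays without transfection serve both FZD8_CRD and control siRNA, and the 6 with control siRNA serve both siRNA comparisons. The number of arrays and the spread between them, slides included, set the precision. Each condition was on every slide once, so a fit with the replicate block has the same differences by design and other p-values.

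A few arrays stood apart from the others of their condition. In array 3 of FZD8_CRD without Wnt3a the sterol enzymes lay on average at -0.56 and the fatty acid enzymes at -0.28 relative to the other arrays of that condition. In array 2 of Wnt3a without transfection the sterol enzymes lay at -0.48 and the fatty acid enzymes at -0.082, and in array 3 of that condition they lay at 0.32 and 0.059. The median absolute difference over all genes was 0.25, 0.238 and 0.243 in these 3 arrays. Counts of calls that depend on them are also given without them, and differences of single genes rest on all arrays unless stated.

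The target of the siRNA served as a check of the labels. Without Wnt3a, CTNNB1, the gene of β-catenin, read 3.28, 3.27 and 3.57 with no transfection, 3.35, 3.37 and 3.51 with control siRNA, 0.26, 0.35 and 0.52 with β-catenin siRNA, and 3.22, 3.38 and 4.11 with FZD8_CRD. With Wnt3a, CTNNB1 read 3.40, 3.31 and 3.47 with no transfection, 3.39, 3.62 and 3.67 with control siRNA, 0.33, 0.52 and 0.77 with β-catenin siRNA, and 3.54, 3.98 and 3.89 with FZD8_CRD. The 6 arrays with β-catenin siRNA lay under 1 and the other 18 over 3, and CTNNB1 differed by -3.03 (SE 0.12, adjusted p = 1.8e-12) from control siRNA. With FZD8_CRD it was higher by 0.30 (adjusted p = 0.0399), a difference of 0.063 under scaling to spike-in probes and no call there or under quantile normalization. AXIN2, a feedback target of Wnt signaling, was higher with Wnt3a by 0.37 (adjusted p = 0.0453) without transfection and by 0.60 (adjusted p = 0.00662) with control siRNA, and under spike-in scaling these were -0.025 and 0.76 with no call. Its difference was -0.26 (adjusted p = 0.382) with β-catenin siRNA and 0.13 (adjusted p = 0.58) with FZD8_CRD, neither of them called. The AXIN2 response to Wnt3a differed between β-catenin siRNA and control siRNA by -0.85 (adjusted p = 0.0519) and between FZD8_CRD and no FZD8_CRD by -0.24 (adjusted p = 0.572), the latter 0.065 under spike-in scaling.

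Each arm was summarised per array as the mean over its members of the log2 value minus that member's own mean over the 24 arrays, a description with no test. Without Wnt3a, the sterol arm stood at 0.67, 0.75 and 0.50 with no transfection, 0.22, 0.29 and 0.10 with control siRNA, 0.053, -0.16 and -0.028 with β-catenin siRNA, and 0.23, 0.13 and -0.38 with FZD8_CRD. With Wnt3a, the sterol arm stood at 0.37, -0.054 and 0.48 with no transfection, -0.12, -0.17 and -0.21 with control siRNA, -0.49, -0.36 and -0.27 with β-catenin siRNA, and -0.54, -0.53 and -0.48 with FZD8_CRD. It was highest in untreated cells without transfection, where the mean was 0.64 ± 0.13 (SD, n = 3), and lowest with FZD8_CRD and Wnt3a, at -0.51 ± 0.032 (SD, n = 3). Array 3 of FZD8_CRD lay beside the arrays with FZD8_CRD and Wnt3a, well under arrays 1 and 2 of its own condition. With either siRNA, with FZD8_CRD and without transfection, the arrays with Wnt3a lay under those without it. Without transfection the gap was narrow, with 0.48 in array 3 of Wnt3a and 0.50 in array 3 without it. In the order of the means from high to low, no transfection with Wnt3a (0.27 ± 0.28), control siRNA (0.20 ± 0.096), FZD8_CRD (-0.0095 ± 0.33) and β-catenin siRNA (-0.045 ± 0.11) followed, then control siRNA with Wnt3a (-0.17 ± 0.048) and β-catenin siRNA with Wnt3a (-0.37 ± 0.11). From Wnt3a without transfection down to β-catenin siRNA, each mean differed from the next by less than the larger SD.

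The fatty acid arm spanned a smaller range. Without Wnt3a, the fatty acid arm stood at 0.086, 0.28 and 0.21 with no transfection, 0.30, 0.35 and 0.15 with control siRNA, -0.084, -0.16 and -0.15 with β-catenin siRNA, and 0.15, 0.11 and -0.15 with FZD8_CRD. With Wnt3a, the fatty acid arm stood at 0.14, 0.074 and 0.17 with no transfection, 0.034, -0.015 and -0.036 with control siRNA, -0.28, -0.19 and -0.18 with β-catenin siRNA, and -0.30, -0.27 and -0.27 with FZD8_CRD. Its highest mean belonged to control siRNA (0.27 ± 0.10), beside no transfection (0.19 ± 0.10), and its lowest to FZD8_CRD with Wnt3a (-0.28 ± 0.020) and β-catenin siRNA with Wnt3a (-0.22 ± 0.055). Each of the 6 arrays with β-catenin siRNA lay under 0.

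The difference between the arms within an array does not depend on a scale factor applied to the whole array. Without Wnt3a, the sterol arm minus the fatty acid arm gave 0.58, 0.47 and 0.29 with no transfection, -0.083, -0.060 and -0.052 with control siRNA, 0.14, -0.0059 and 0.12 with β-catenin siRNA, and 0.080, 0.013 and -0.23 with FZD8_CRD. With Wnt3a, the sterol arm minus the fatty acid arm gave 0.23, -0.13 and 0.31 with no transfection, -0.15, -0.16 and -0.18 with control siRNA, -0.21, -0.17 and -0.088 with β-catenin siRNA, and -0.24, -0.26 and -0.21 with FZD8_CRD. Untreated cells without transfection had the highest mean difference (0.45 ± 0.15), with their array 3 just under array 3 of Wnt3a without transfection. Every array with Wnt3a and an siRNA or FZD8_CRD lay under 0. Control siRNA without Wnt3a stood at -0.065 ± 0.016, under all 3 untreated arrays without transfection, and β-catenin siRNA without Wnt3a at 0.085 ± 0.079. Without Wnt3a, control siRNA thus went with a lower sterol arm at a similar fatty acid arm, and β-catenin siRNA with lower levels of both arms.

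**Figure D1:**
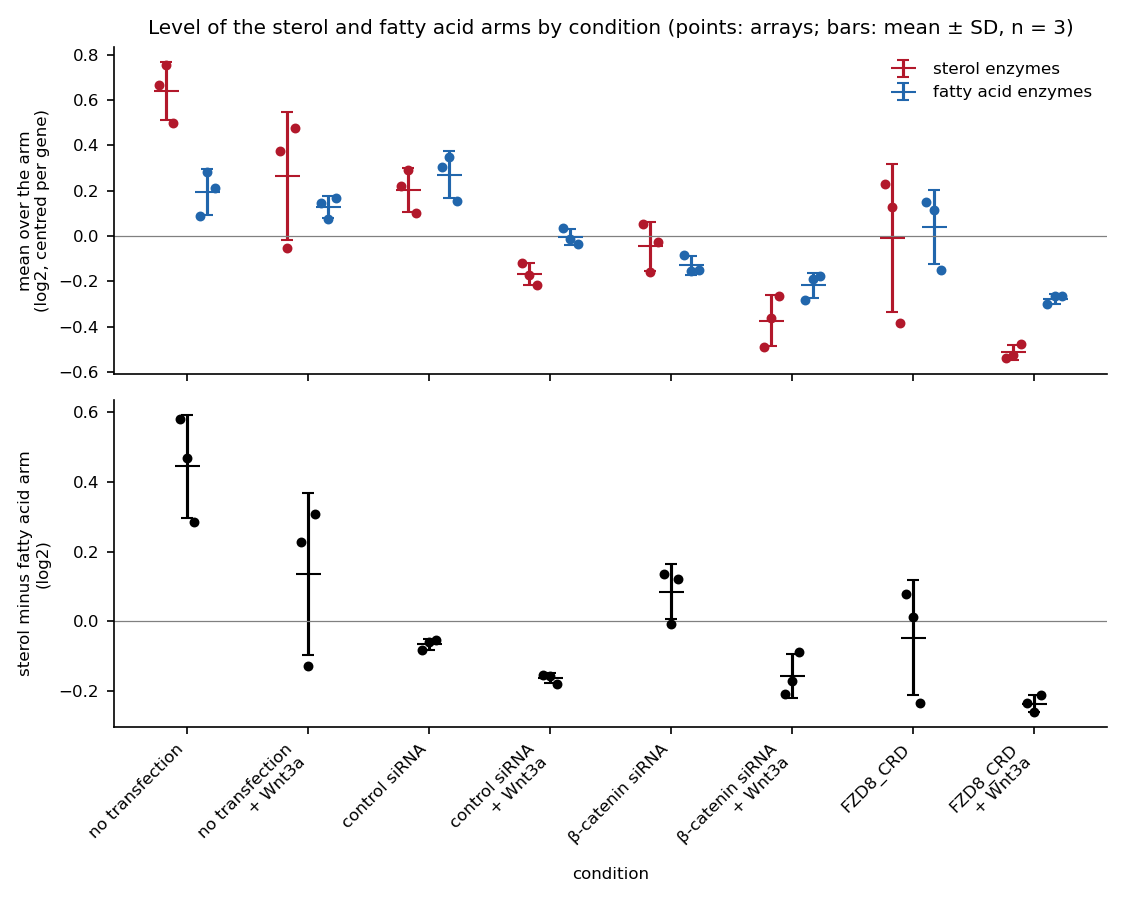
Level of each arm (upper panel, mean over members of log2 signal minus the member's mean over 24 arrays) and the sterol arm minus the fatty acid arm (lower panel, log2) in the 8 conditions, with 1 point per array and bars for mean and SD (n = 3). The sterol arm runs from 0.64 in untreated cells to -0.51 with FZD8_CRD and Wnt3a, and the fatty acid arm from 0.27 to -0.28.

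FZD8_CRD binds Wnt proteins outside the cell, both those added and those the cells make. With it, nearly the whole sterol route was lower, from HMGCS1 at the entry to DHCR7 at the end, along with SREBF1, SREBF2 and INSIG1. Without Wnt3a alone SREBF2 (-0.085, adjusted p = 0.555), FDFT1 (adjusted p = 0.583), SQLE (adjusted p = 0.273), HSD17B7 (adjusted p = 0.139) and FADS1 (adjusted p = 0.693) were not called. The same held for PMVK (adjusted p = 0.465), the 1 sterol enzyme called higher with FZD8_CRD. With Wnt3a alone SQLE (adjusted p = 0.0738) and HSD17B7 (adjusted p = 0.2) were not called. The fatty acid arm was divided, with FASN, ACSS2, SCD and FADS1 lower, and ACLY and FADS2 higher. Under spike-in scaling there was no call for FADS1, ACLY or FADS2.

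Of the 29 members, 23 fell with FZD8_CRD, where 29.3% of all genes tested fell, and 3 rose (0 under scaling to spike-in probes), where 24.3% of all genes rose. By arm, 16 of 17 sterol enzymes, 4 of 8 fatty acid enzymes and 3 of 4 regulators and transport genes fell. The rises, 1 in a sterol enzyme and 2 in fatty acid enzymes, were no calls under spike-in scaling, and there 21 members fell, with 31.8% of all genes. The median difference was -0.67 for sterol enzymes, -0.11 for fatty acid enzymes and -0.54 for regulators and transport, beside -0.086 for all genes, and each of the 3 kept its sign under quantile normalization and under scaling to spike-in probes. The fatty acid median was 0.023 without Wnt3a alone and -0.25 with Wnt3a alone. At an unadjusted p under 0.05 limma had 27 of the members, beside 58.5% of all genes. With the replicate block 26 members were called, where 64.3% of all genes were. Within slides 1, 2 and 3 the sterol median was -0.58, -0.42 and -0.82 and the fatty acid median -0.11, -0.081 and -0.19. Without array 3 of FZD8_CRD, 26 members and 53.4% of all genes were called and the arm medians were -0.56 and -0.082. Without array 2 of Wnt3a without transfection 27 members and 53.9% of all genes were called, with -0.72 and -0.12.

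Scaling to the 7 spike-in probes in place of the 75th percentile moved the differences of all members in a comparison by the same amount, and signs under it are to be read against that move. Under it the calls of members were kept in HMGCS1, TM7SF2 and SC5D with control siRNA, in MSMO1 and SREBF1 with β-catenin siRNA, in 21 falls with FZD8_CRD, and in no Wnt3a response. The move was -0.39 for Wnt3a without transfection, 0.16 with control siRNA, -0.13 with β-catenin siRNA and -0.090 with FZD8_CRD. For the backgrounds it was -0.0053 for control siRNA, -0.057 for β-catenin siRNA and -0.24 for FZD8_CRD. For the differences in Wnt3a response it was -0.29 between the siRNAs and 0.30 between FZD8_CRD and no FZD8_CRD.

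The control siRNA has no target of its own, and its cells differ from those without transfection by the electroporation and the siRNA. Sterol enzymes from HMGCS1 to DHCR7 were lower in these cells, while SREBF1, SREBF2 and most fatty acid enzymes were not called. Of the members, 16 fell, where 13.4% of all genes fell, and 1 rose, where 16.1% of all genes rose. The 16 comprised 14 of 17 sterol enzymes, 1 of 8 fatty acid enzymes (ACSS2) and 1 regulator (INSIG1), and the rise was in the fatty acid enzyme FADS2. The median difference was -0.40 for the sterol enzymes, -0.042 for the fatty acid enzymes and 0.015 for regulators and transport, beside -0.026 for all genes, and these signs held under quantile and spike-in scaling. Under spike-in scaling 3 members fell and 0 rose by the limma fit, all 3 of them sterol enzymes, where 4.18% of all genes fell. With the main scaling 19 members had an unadjusted p under 0.05, beside 38.8% of all genes. With the replicate block 17 fell and 2 rose, where 40.1% of all genes were called. Within slides 1, 2 and 3 the sterol median was -0.41, -0.29 and -0.46 and the fatty acid median 0.047, -0.030 and -0.082. Taken without Wnt3a alone, 6 members fell and 1 rose, where 22.3% of all genes were called, with a fatty acid median of 0.064. With Wnt3a alone 9 fell, where 9.04% of all genes were called, with a fatty acid median of -0.12. The count was 5 without slide 1 (10.9% of all genes), and 18 without array 2 of Wnt3a without transfection (32.3%).

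β-catenin carries the Wnt signal into the nucleus and joins cells at their contacts. With its siRNA, 6 fatty acid enzymes from ACLY to FADS1 were lower than with control siRNA, as were SREBF1, SREBF2 and INSIG1. In the sterol arm MSMO1, DHCR7 and HMGCS1 were lower, and TM7SF2 and SC5D, which were low with control siRNA already, were not called. Of the members, 16 fell, where 12.1% of all genes fell, and 0 rose in the limma fit, where 9.08% of all genes rose, and 20 members had an unadjusted p under 0.05, beside 31.1% of all genes. The falls comprised 7 of 17 sterol enzymes, 6 of 8 fatty acid enzymes and 3 of 4 regulators and transport genes. The median difference was -0.23 for sterol enzymes, -0.32 for fatty acid enzymes and -0.43 for regulators and transport, beside -0.022 for all genes, all 3 below 0 under quantile and spike-in scaling too. Under spike-in scaling 2 members fell, where 3.61% of all genes did. With the replicate block 17 fell and 1 rose, where 28.1% of all genes were called. Within slides 1, 2 and 3 the sterol median was -0.26, -0.25 and -0.10 and the fatty acid median -0.37, -0.37 and -0.26. The count was 9 without Wnt3a alone and 5 with Wnt3a alone (10.6% of all genes in each), 6 without slide 1 (10.2% of all genes), 5 without slide 2 (8.84%) and 10 without array 2 of control siRNA (18.5%).

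Wnt3a stabilises β-catenin in cells that can receive it. Its responses in the members were mostly below 0 in all 4 backgrounds, and outside FZD8_CRD few of them passed the test. Without transfection 2 members fell, where 2.61% of all genes fell, and 0 rose in the limma fit, where 2.99% rose, with 12 members and 21.2% of all genes at an unadjusted p under 0.05. Both falls were in sterol enzymes (IDI1 and EBP), and the median was -0.39 for sterol enzymes and -0.035 for fatty acid enzymes, the latter 0.035 under quantile normalization and -0.43 under spike-in scaling. The sterol median within slides 1, 2 and 3 was -0.29, -0.82 and -0.027, and the fatty acid median 0.081, -0.082 and -0.054. With the replicate block 4 members fell, where 11.5% of all genes were called. The count was 0 under spike-in scaling and quantile normalization, and 0 without array 1 or array 2 of no transfection. It was 0 without array 2 of Wnt3a, where the sterol median was -0.20 and the fatty acid median -0.0097, and 5 without array 3 of Wnt3a, where 12.9% of all genes were called. It was 0 without slide 1 or slide 2, where 0.11% and 0.0243% of all genes were called, and 19 without slide 3, where 25.7% were.

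In cells with control siRNA, the medians of both arms lay below 0 with Wnt3a. Here 2 members fell, where 1.02% of all genes fell, and 0 rose in the limma fit, where 1.09% rose, with 19 members and 14% of all genes at an unadjusted p under 0.05. Both were fatty acid enzymes (ACSS2 and FADS1), and the median was -0.36 for sterol enzymes and -0.23 for fatty acid enzymes, below 0 also under quantile (-0.32 and -0.18) and spike-in scaling (-0.20 and -0.067). The sterol median within slides 1, 2 and 3 was -0.33, -0.46 and -0.32, and the fatty acid median -0.18, -0.31 and -0.19. The replicate block gave 6 falls, where 4.35% of all genes were called. The count was 0 under spike-in scaling and 1 under quantile normalization. It was 0 without any 1 of the 3 arrays of control siRNA, 1 without array 1 of Wnt3a, and 0 without its array 2 or array 3. The count was 0 without slide 1 or slide 2, where 4 and 12 of all 24648 genes were called, and 7 without slide 3, where 2.33% were.

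In cells with β-catenin siRNA, and so with little CTNNB1, the responses of HMGCS1, DHCR7 and ACSS2 to Wnt3a were of the same sign as elsewhere. Here 0 members passed the test for Wnt3a in the limma fit, where 0.0365% of all genes rose and 0.00406% fell, and 8 members and 10.4% of all genes had an unadjusted p under 0.05. The medians were -0.33 for sterol enzymes and -0.056 for fatty acid enzymes, with -0.45 and -0.18 under spike-in scaling. Within slides 1, 2 and 3 the sterol median was -0.54, -0.17 and -0.21, and the fatty acid median -0.18, 0.046 and 0.020. The replicate block left the count at 0, where 0.17% of all genes were called.

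Wnt3a and FZD8_CRD together gave the lowest levels of both arms. In cells with FZD8_CRD, 16 members fell with Wnt3a, where 3.94% of all genes fell, and 0 rose in the limma fit, where 4.36% rose, with 23 members and 20.5% of all genes at an unadjusted p under 0.05. They were 9 of 17 sterol enzymes, 4 of 8 fatty acid enzymes and 3 of 4 regulators and transport genes, with medians of -0.54, -0.31 and -0.53, all 3 below 0 under quantile and spike-in scaling as well. The count was 0 under spike-in scaling, where 0.325% of all genes fell. Within slides 1, 2 and 3 the sterol median was -0.82, -0.72 and -0.079 and the fatty acid median -0.44, -0.39 and -0.13, and with the replicate block 19 members fell, where 13.4% of all genes were called. Without array 3 of FZD8_CRD, 24 members fell and 1 rose, with medians of -0.74 and -0.37, where 19.9% of all genes were called. The count was 2 without array 1 and 2 without array 2 of FZD8_CRD (1.41% and 1.48% of all genes), and 6 and 9 without array 1 and array 2 of FZD8_CRD with Wnt3a (3.54% and 3.56%). It was 25 without slide 3 (21.6%), and 0 without slide 1 or slide 2, where 3 and 0 of all 24648 genes were called.

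Whether a Wnt3a response differed between backgrounds was tested directly. Between β-catenin siRNA and control siRNA 0 members were called by limma, where 0.0162% of all genes were, and 1 member (FADS1) had an unadjusted p under 0.05, beside 3.33% of all genes. The median difference in response was 0.067 for sterol and 0.18 for fatty acid enzymes, and of the other sign under spike-in scaling, at -0.22 and -0.11, where the median of all genes was -0.28. Within slides 1, 2 and 3 the sterol median was -0.18, 0.30 and 0.053 and the fatty acid median 0.087, 0.31 and 0.16. Between FZD8_CRD and no FZD8_CRD 0 members were called by limma, where 0.073% of all genes were, and 6 had an unadjusted p under 0.05, beside 12.7% of all genes. The medians were -0.13 and -0.25, and of the other sign under spike-in scaling, at 0.17 and 0.047, where the median of all genes was 0.31. Within slides 1, 2 and 3 the sterol median was -0.50, 0.17 and -0.056 and the fatty acid median -0.45, -0.20 and -0.076. The replicate block called 0 in either comparison. Without array 3 of FZD8_CRD the count of called members was 9, where 7.75% of all genes were called, and without slide 3 it was 8, where 12.1% were. The larger counts for Wnt3a with FZD8_CRD than without are therefore not shown to be a difference between the backgrounds with all arrays in the fit.

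**Figure D2:**
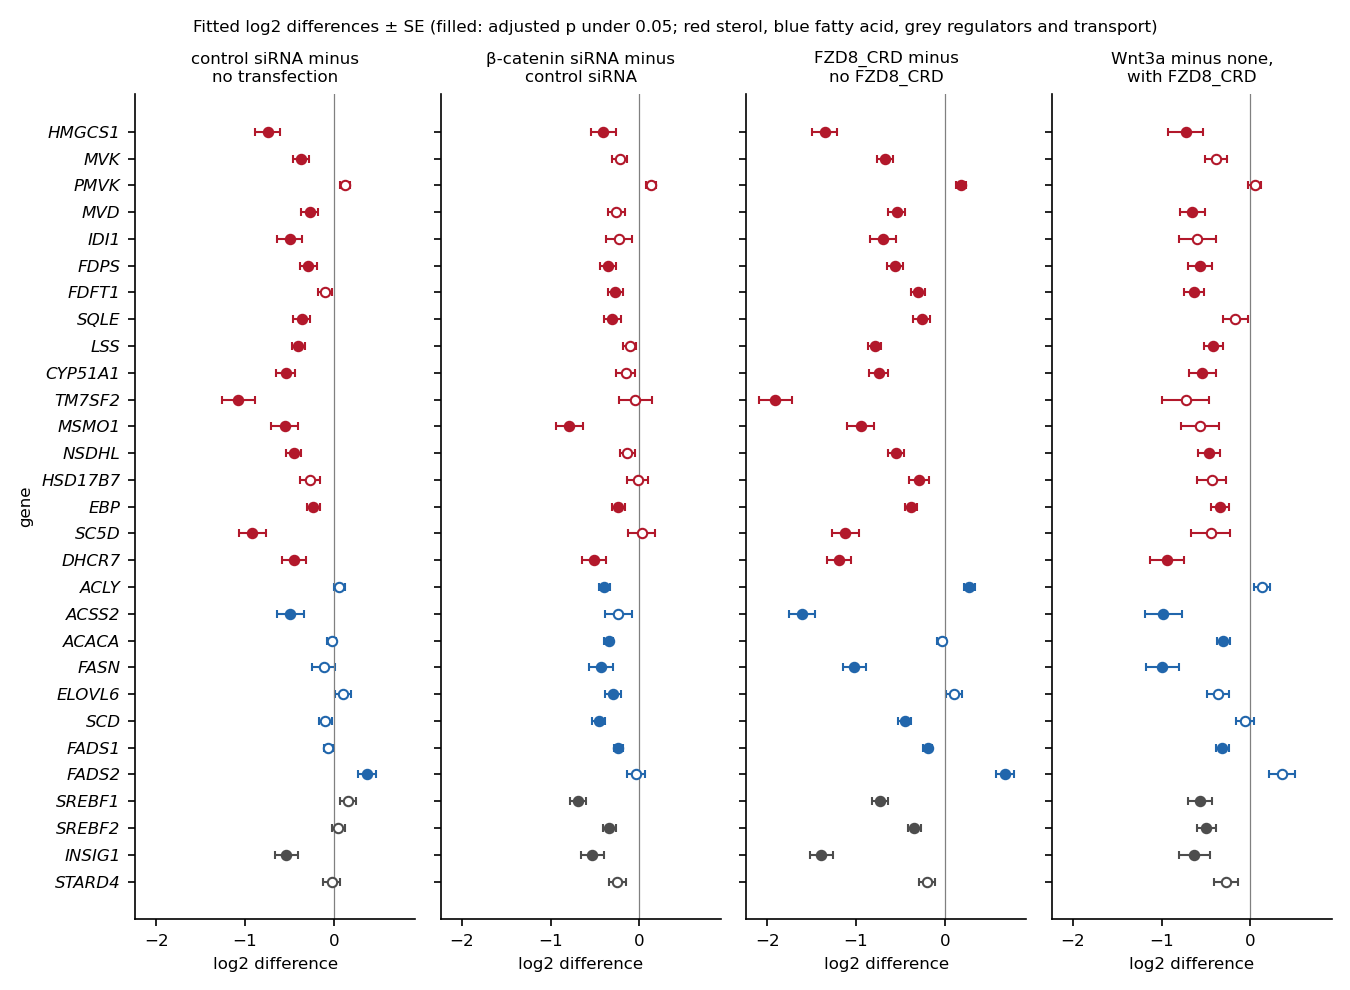
Fitted log2 differences with SE of the 29 members, in order of the pathways, for control siRNA against no transfection, β-catenin siRNA against control siRNA, FZD8_CRD against no FZD8_CRD (6 arrays against 6) and Wnt3a with FZD8_CRD (3 against 3). Filled points are members called at an adjusted p under 0.05. The sterol enzymes lie below 0 nearly throughout, and FADS2 and ACLY lie above 0 with FZD8_CRD. Under scaling to spike-in probes neither was called there, at 0.44 for FADS2 and 0.034 for ACLY.

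Among the members the sterol route begins with HMGCS1, which condenses acetyl-CoA units to HMG-CoA. The promoters of HMGCS1, TM7SF2 and MSMO1, members that moved with FZD8_CRD, are shown as 250 bases before the RefSeq start (GRCh38.p14), with each NF-Y box (CCAAT, on either strand) in capitals. They lie at chr5:43313413-43313662 on the minus strand, chr11:65111622-65111871 on the plus strand and chr4:165327419-165327668 on the plus strand. HMGCS1 has another RefSeq start, whose window held no NF-Y box and is not shown.
HMGCS1: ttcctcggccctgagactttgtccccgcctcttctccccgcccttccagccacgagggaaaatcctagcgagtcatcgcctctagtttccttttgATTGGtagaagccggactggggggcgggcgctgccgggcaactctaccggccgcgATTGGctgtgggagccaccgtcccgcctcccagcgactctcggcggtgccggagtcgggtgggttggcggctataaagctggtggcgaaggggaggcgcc
TM7SF2: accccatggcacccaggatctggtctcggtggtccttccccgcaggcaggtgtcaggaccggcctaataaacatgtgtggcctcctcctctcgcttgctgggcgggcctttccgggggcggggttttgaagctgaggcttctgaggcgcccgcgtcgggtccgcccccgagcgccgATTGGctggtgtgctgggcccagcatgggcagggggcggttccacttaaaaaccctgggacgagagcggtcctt
MSMO1: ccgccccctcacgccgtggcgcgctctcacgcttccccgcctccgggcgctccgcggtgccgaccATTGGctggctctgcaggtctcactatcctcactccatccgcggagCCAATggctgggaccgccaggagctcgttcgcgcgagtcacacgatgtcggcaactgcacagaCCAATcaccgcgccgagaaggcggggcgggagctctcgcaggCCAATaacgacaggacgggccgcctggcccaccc

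RefSeq windows from 250 bases before to 50 after a start were at hand for 26 members (36 windows), all members but FDFT1, SQLE and FASN. CCAAT was found on either strand in 69.4% of the members' windows, in 13 of 15 sterol enzymes, 5 of 7 fatty acid enzymes and 3 of 4 regulators and transport genes, and in 34.6% of all 35116 windows. The GC box GGGCGG was found in 88.9% of the members' windows and 45% of all, and the E-box CACGTG in 11.1% and 7.26%. The TCF/LEF core CTTTGAT was in 0 of the members' windows and 2.62% of all. A match describes letters in a window and is no measured site.

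Without Wnt3a, HMGCS1 read 2.60, 2.68 and 2.44 with no transfection, 1.86, 2.02 and 1.57 with control siRNA, 1.5, 1.15 and 1.43 with β-catenin siRNA, and 1.69, 1.47 and 0.73 with FZD8_CRD. With Wnt3a, HMGCS1 read 2.11, 1.54 and 2.33 with no transfection, 1.33, 1.30 and 1.17 with control siRNA, 0.75, 0.98 and 1.01 with β-catenin siRNA, and 0.53, 0.49 and 0.69 with FZD8_CRD. In each background the 3 arrays with Wnt3a lay under the 3 without it. Between FZD8_CRD and no FZD8_CRD the arrays overlapped in 1 place, where array 1 of FZD8_CRD lay above array 2 of Wnt3a without transfection. HMGCS1 was 2.55-fold lower with FZD8_CRD, a log2 difference of -1.35 (SE 0.14, adjusted p = 1.64e-07), 1.67-fold lower with control siRNA, at -0.74 (SE 0.14, adjusted p = 0.000504), and lower with β-catenin siRNA by -0.40 (SE 0.14, adjusted p = 0.0465), a call that 12 of 30 alternative settings kept. Its fall with Wnt3a passed the test with FZD8_CRD (-0.73, adjusted p = 0.0284), with -1.16, -0.98 and -0.044 in slides 1, 2 and 3 and the call kept in 12 of 22 settings, and not in the other backgrounds, where the differences ran from -0.58 to -0.45.

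MVK phosphorylates mevalonate, PMVK phosphorylates it again, and MVD turns the product into isopentenyl pyrophosphate. Without Wnt3a, MVK read 4.80, 4.98 and 4.69 with no transfection, 4.56, 4.59 and 4.29 with control siRNA, 4.33, 4.19 and 4.13 with β-catenin siRNA, and 4.39, 4.39 and 3.87 with FZD8_CRD. With Wnt3a, MVK read 4.69, 4.41 and 4.62 with no transfection, 4.23, 4.11 and 4.18 with control siRNA, 3.81, 4.03 and 4.13 with β-catenin siRNA, and 3.78, 3.92 and 3.79 with FZD8_CRD. The 6 MVK values with FZD8_CRD lay under the 6 without transfection. MVK differed by -0.67 (SE 0.087, adjusted p = 2.31e-06) with FZD8_CRD and by -0.37 (SE 0.087, adjusted p = 0.00291) with control siRNA. Without Wnt3a, MVD read 1.67, 1.75 and 1.59 with no transfection, 1.52, 1.47 and 1.39 with control siRNA, 1.31, 1.02 and 1.21 with β-catenin siRNA, and 1.47, 1.4 and 1.01 with FZD8_CRD. With Wnt3a, MVD read 1.51, 0.98 and 1.53 with no transfection, 1.18, 0.92 and 0.90 with control siRNA, 0.69, 0.62 and 1.0 with β-catenin siRNA, and 0.60, 0.67 and 0.64 with FZD8_CRD. In every background each array of MVD with Wnt3a lay under each array without it. MVD differed by -0.54 (SE 0.098, adjusted p = 0.000105) with FZD8_CRD and by -0.65 (SE 0.14, adjusted p = 0.00712) with Wnt3a in FZD8_CRD cells.

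PMVK departed from the rest of the arm and was chosen for a full account after its values were seen. Without Wnt3a, PMVK read 3.74, 3.89 and 3.58 with no transfection, 3.86, 3.81 and 3.67 with control siRNA, 3.91, 4.04 and 3.82 with β-catenin siRNA, and 3.82, 3.80 and 3.82 with FZD8_CRD. With Wnt3a, PMVK read 3.54, 3.65 and 3.55 with no transfection, 3.79, 3.86 and 3.72 with control siRNA, 3.97, 3.94 and 3.85 with β-catenin siRNA, and 3.89, 3.94 and 3.75 with FZD8_CRD. The values spanned a narrow range and the groups overlapped. PMVK was the 1 sterol enzyme called higher with FZD8_CRD, by 0.18 (SE 0.055, adjusted p = 0.0103), and under spike-in scaling this difference was -0.062. Its differences were 0.13 (adjusted p = 0.0922) with control siRNA and 0.14 (adjusted p = 0.0924) with β-catenin siRNA, neither called, and both were called with the replicate block (adjusted p = 0.0131 and 0.0121).

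IDI1 interconverts the isoprenoid pyrophosphates that FDPS joins to farnesyl pyrophosphate. Without Wnt3a, IDI1 read 3.41, 3.57 and 3.49 with no transfection, 2.87, 2.92 and 2.80 with control siRNA, 2.76, 2.44 and 2.55 with β-catenin siRNA, and 3.08, 2.93 and 2.23 with FZD8_CRD. With Wnt3a, IDI1 read 2.83, 2.19 and 3.35 with no transfection, 2.35, 2.48 and 2.44 with control siRNA, 2.14, 2.33 and 2.28 with β-catenin siRNA, and 2.19, 2.08 and 2.17 with FZD8_CRD. Without transfection, the 3 arrays with Wnt3a lay under the 3 without it, array 2 far under and array 3 close. IDI1 differed with Wnt3a there by -0.70 (SE 0.21, adjusted p = 0.0499), with -0.58, -1.39 and -0.14 within slides 1, 2 and 3. Of 22 alternative settings 6 kept that call, and without array 2 of Wnt3a the IDI1 difference was -0.40 and not called. It also differed by -0.50 (SE 0.15, adjusted p = 0.0131) with control siRNA and by -0.69 (SE 0.15, adjusted p = 0.000447) with FZD8_CRD. FDPS fell with FZD8_CRD (-0.56, adjusted p = 4.9e-05), control siRNA (-0.29, adjusted p = 0.0269), β-catenin siRNA (-0.35, adjusted p = 0.0103), and with Wnt3a in FZD8_CRD cells (-0.56, adjusted p = 0.013).

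FDFT1 makes squalene, SQLE turns it into the epoxide, and LSS closes that to lanosterol. FDFT1 fell with β-catenin siRNA (-0.27, adjusted p = 0.0229), FZD8_CRD (-0.30, adjusted p = 0.00432) and with Wnt3a in FZD8_CRD cells (-0.63, adjusted p = 0.00302), and differed by -0.098 (adjusted p = 0.418) with control siRNA. Its difference with FZD8_CRD was -0.088 (adjusted p = 0.583) without Wnt3a and -0.52 (adjusted p = 0.00167) with it. SQLE fell with control siRNA (-0.36, adjusted p = 0.00804), β-catenin siRNA (-0.30, adjusted p = 0.032) and FZD8_CRD (-0.26, adjusted p = 0.0306), and was called in no Wnt3a response. Without Wnt3a, LSS read 3.84, 3.95 and 3.68 with no transfection, 3.56, 3.63 and 3.39 with control siRNA, 3.37, 3.26 and 3.35 with β-catenin siRNA, and 3.35, 3.23 and 2.86 with FZD8_CRD. With Wnt3a, LSS read 3.76, 3.49 and 3.65 with no transfection, 3.27, 3.12 and 3.00 with control siRNA, 3.06, 3.08 and 3.20 with β-catenin siRNA, and 2.73, 2.67 and 2.78 with FZD8_CRD. LSS with FZD8_CRD lay under LSS without transfection in all arrays. LSS differed by -0.79 (SE 0.076, adjusted p = 6.48e-08) with FZD8_CRD and by -0.40 (SE 0.076, adjusted p = 0.000518) with control siRNA. A second LSS probe, for another transcript, gave -1.5 (adjusted p = 4.82e-09) and -0.61 (adjusted p = 0.000403) in these comparisons.

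The steps from lanosterol to cholesterol involve CYP51A1, which removes the first methyl group, TM7SF2, a sterol reductase, MSMO1 and NSDHL, which take off further methyl groups, HSD17B7, a sterol ketone reductase, EBP, an isomerase, SC5D, a desaturase, and DHCR7, which makes cholesterol from 7-dehydrocholesterol. Without Wnt3a, TM7SF2 read 1.52, 1.22 and 0.73 with no transfection, 0.059, 0.11 and -0.12 with control siRNA, 0.30, -0.024 and 0.24 with β-catenin siRNA, and -0.28, -0.55 and -1.23 with FZD8_CRD. With Wnt3a, TM7SF2 read 0.85, -0.13 and 0.94 with no transfection, -0.23, -0.55 and -0.62 with control siRNA, -1.09, -0.65 and -0.39 with β-catenin siRNA, and -1.47, -1.5 and -1.28 with FZD8_CRD. Untreated cells without transfection stood highest on average, the arrays with FZD8_CRD all lay under those without transfection, and array 3 of FZD8_CRD lay close to the arrays with Wnt3a added. TM7SF2 had the largest difference among the 29 members, 3.75-fold lower with FZD8_CRD at -1.91 (SE 0.19, adjusted p = 7.2e-08), and was 2.11-fold lower with control siRNA at -1.08 (SE 0.19, adjusted p = 0.000206). Its difference with β-catenin siRNA was -0.046 (adjusted p = 0.923).

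SC5D was low with either siRNA and with FZD8_CRD. Without Wnt3a, SC5D read -1.20, -1.47 and -1.65 with no transfection, -2.31, -2.47 and -2.25 with control siRNA, -2.25, -2.62 and -2.32 with β-catenin siRNA, and -2.25, -2.31 and -3.16 with FZD8_CRD. With Wnt3a, SC5D read -1.70, -2.43 and -1.60 with no transfection, -2.60, -2.91 and -3.01 with control siRNA, -2.80, -2.83 and -2.60 with β-catenin siRNA, and -3.08, -3.03 and -2.96 with FZD8_CRD. The untreated arrays without transfection lay above every other array except array 3 of Wnt3a without transfection, which passed the lowest of them. SC5D differed by -1.12 (SE 0.16, adjusted p = 5.01e-06) with FZD8_CRD and by -0.92 (SE 0.16, adjusted p = 0.000175) with control siRNA, and its difference with β-catenin siRNA was 0.027 (adjusted p = 0.948).

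MSMO1 was lower with either siRNA in turn. Without Wnt3a, MSMO1 read 1.49, 1.38 and 1.16 with no transfection, 0.78, 1.05 and 0.63 with control siRNA, 0.28, -0.31 and 0.050 with β-catenin siRNA, and 0.77, 0.65 and -0.040 with FZD8_CRD. With Wnt3a, MSMO1 read 1.1, 0.35 and 1.26 with no transfection, 0.34, 0.42 and 0.22 with control siRNA, -0.59, -0.40 and -0.33 with β-catenin siRNA, and -0.11, -0.30 and 0.088 with FZD8_CRD. The arrays with β-catenin siRNA lay under those with control siRNA at the same Wnt3a state with no overlap, and array 1 of β-catenin siRNA passed array 3 of control siRNA with Wnt3a. MSMO1 fell 1.73-fold with β-catenin siRNA, at -0.79 (SE 0.15, adjusted p = 0.000764), which was the largest difference of a member in that comparison. It also differed by -0.55 (SE 0.15, adjusted p = 0.00936) with control siRNA and by -0.95 (SE 0.15, adjusted p = 2.92e-05) with FZD8_CRD.

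DHCR7, the last enzyme of this route, changed in all 3 comparisons of backgrounds. Without Wnt3a, DHCR7 read 6.13, 6.32 and 5.90 with no transfection, 5.81, 5.95 and 5.58 with control siRNA, 5.36, 5.16 and 5.23 with β-catenin siRNA, and 5.64, 5.42 and 4.53 with FZD8_CRD. With Wnt3a, DHCR7 read 5.80, 5.48 and 5.90 with no transfection, 5.29, 5.14 and 5.07 with control siRNA, 4.53, 4.72 and 4.79 with β-catenin siRNA, and 4.28, 4.18 and 4.31 with FZD8_CRD. In every background the arrays with Wnt3a lay under those without it, in cells without transfection only just. DHCR7 differed by -1.20 (SE 0.14, adjusted p = 4.29e-07) with FZD8_CRD, by -0.51 (SE 0.14, adjusted p = 0.00969) with β-catenin siRNA and by -0.45 (SE 0.14, adjusted p = 0.0162) with control siRNA. With Wnt3a in FZD8_CRD cells it differed by -0.94 (SE 0.19, adjusted p = 0.0056), and by -1.35, -1.24 and -0.22 in slides 1, 2 and 3.

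Without Wnt3a, CYP51A1 read 4.44, 4.47 and 4.30 with no transfection, 3.81, 3.94 and 3.80 with control siRNA, 3.76, 3.53 and 3.80 with β-catenin siRNA, and 3.95, 3.88 and 3.43 with FZD8_CRD. With Wnt3a, CYP51A1 read 4.13, 3.65 and 4.39 with no transfection, 3.49, 3.48 and 3.60 with control siRNA, 3.18, 3.38 and 3.55 with β-catenin siRNA, and 3.08, 3.21 and 3.35 with FZD8_CRD. Untreated cells without transfection were high, and the groups with and without FZD8_CRD overlapped. CYP51A1 differed by -0.75 (SE 0.11, adjusted p = 7.06e-06) with FZD8_CRD and by -0.54 (SE 0.11, adjusted p = 0.000632) with control siRNA. EBP read 6.71, 6.87 and 6.54 without transfection and 6.35, 6.21 and 6.27 with Wnt3a added, with no overlap. This difference of -0.43 (SE 0.10, adjusted p = 0.0185) was called, and 12 of 22 alternative settings kept the call. NSDHL, at -0.42 (adjusted p = 0.0505) in that comparison, missed the threshold (adjusted p = 0.039 with the replicate block), and fell with control siRNA (-0.45, adjusted p = 0.000569) and FZD8_CRD (-0.55, adjusted p = 2.5e-05). HSD17B7 fell with FZD8_CRD by the probe used (-0.29, adjusted p = 0.0383), while its other probes gave -0.17 (adjusted p = 0.18) and -0.22 (adjusted p = 0.121). Of 30 alternative settings 11 kept that call, and whether a probe also reads a related copy of HSD17B7 was not checked.

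**Figure D3:**
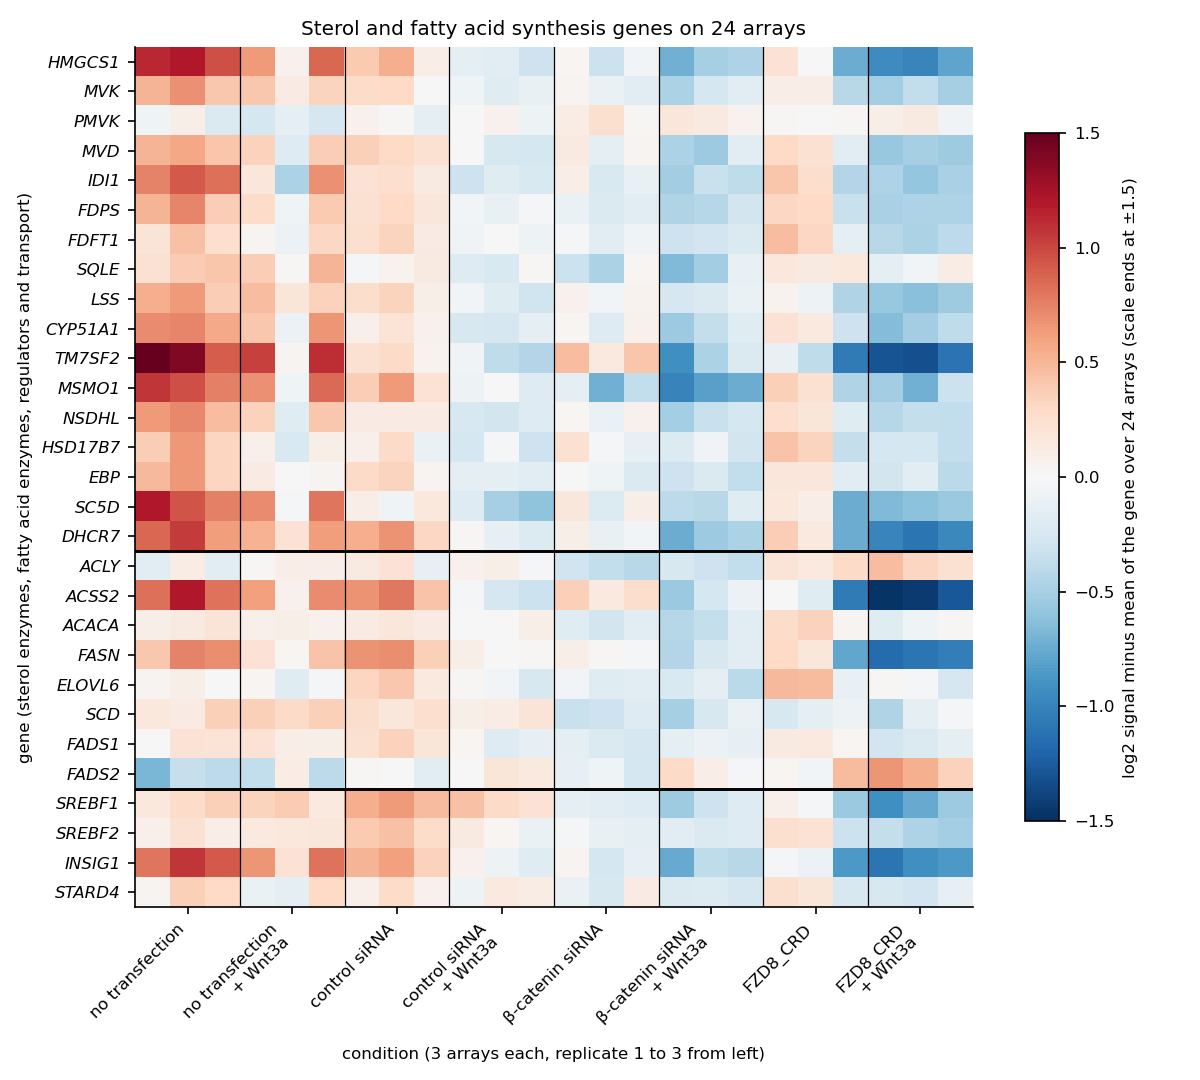
Log2 signal of the 29 members in 24 arrays, each gene minus its own mean over the arrays, with colours ending at 1.5 above and below 0 and columns grouped by condition. Most sterol enzymes share the order of the conditions, with untreated cells without transfection high and FZD8_CRD with Wnt3a low, and PMVK, ACLY and FADS2 do not.

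The fatty acid arm draws on acetyl-CoA made by ACLY from citrate and by ACSS2 from acetate. ACLY was chosen for a full account after its values were seen. Without Wnt3a, ACLY read 2.01, 2.28 and 2.00 with no transfection, 2.29, 2.39 and 2.04 with control siRNA, 1.87, 1.80 and 1.75 with β-catenin siRNA, and 2.36, 2.31 and 2.46 with FZD8_CRD. With Wnt3a, ACLY read 2.18, 2.26 and 2.26 with no transfection, 2.23, 2.26 and 2.13 with control siRNA, 1.92, 1.86 and 1.80 with β-catenin siRNA, and 2.63, 2.48 and 2.40 with FZD8_CRD. ACLY with β-catenin siRNA lay under ACLY with control siRNA in all arrays, and with FZD8_CRD above it without transfection in all arrays. ACLY fell 1.31-fold with β-catenin siRNA, at -0.39 (SE 0.062, adjusted p = 0.000106), and rose 1.21-fold with FZD8_CRD, at 0.27 (SE 0.062, adjusted p = 0.000936), with no call under spike-in scaling. In no Wnt3a response did it pass the test.

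ACSS2 was lower with FZD8_CRD, where ACLY was higher (no call for ACLY under spike-in scaling). Without Wnt3a, ACSS2 read 3.39, 3.76 and 3.37 with no transfection, 3.24, 3.35 and 2.99 with control siRNA, 2.92, 2.71 and 2.83 with β-catenin siRNA, and 2.57, 2.37 and 1.49 with FZD8_CRD. With Wnt3a, ACSS2 read 3.17, 2.63 and 3.27 with no transfection, 2.55, 2.30 and 2.24 with control siRNA, 2.01, 2.30 and 2.48 with β-catenin siRNA, and 1.09, 1.12 and 1.29 with FZD8_CRD. The 6 arrays with FZD8_CRD lay under the 6 without transfection, and in every background each array with Wnt3a lay under each without it. ACSS2 was 3.05-fold lower with FZD8_CRD, at -1.61 (SE 0.15, adjusted p = 4.44e-08), and differed by -0.49 (SE 0.15, adjusted p = 0.0178) with control siRNA. With Wnt3a it differed by -0.83 (SE 0.21, adjusted p = 0.0443) in cells with control siRNA (-0.69, -1.05 and -0.75 in slides 1, 2 and 3), a call kept in 12 of 22 alternative settings, and by -0.98 (SE 0.21, adjusted p = 0.0078) with FZD8_CRD (-1.48, -1.25 and -0.21). Its difference with β-catenin siRNA was -0.24 (adjusted p = 0.312).

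ACACA, chosen after its values were seen, makes malonyl-CoA, the step that commits carbon to fatty acids, and FASN builds palmitate from it. Without Wnt3a, ACACA read 3.47, 3.51 and 3.58 with no transfection, 3.50, 3.56 and 3.50 with control siRNA, 3.20, 3.1 and 3.22 with β-catenin siRNA, and 3.66, 3.73 and 3.43 with FZD8_CRD. With Wnt3a, ACACA read 3.45, 3.47 and 3.45 with no transfection, 3.38, 3.37 and 3.47 with control siRNA, 2.96, 3.02 and 3.21 with β-catenin siRNA, and 3.20, 3.31 and 3.40 with FZD8_CRD. ACACA with β-catenin siRNA lay under ACACA with control siRNA in all arrays, and the other backgrounds overlapped. ACACA differed by -0.35 (SE 0.053, adjusted p = 7.72e-05) with β-catenin siRNA by -0.30 (SE 0.075, adjusted p = 0.0175) with Wnt3a in FZD8_CRD cells, a call kept in 11 of 22 settings, and by -0.034 (adjusted p = 0.612) with FZD8_CRD. A second ACACA probe gave -0.20 (adjusted p = 0.353) with Wnt3a in FZD8_CRD cells, -0.41 (adjusted p = 0.000805) with β-catenin siRNA and 0.24 (adjusted p = 0.0246) with control siRNA, where the probe used gave -0.024 (adjusted p = 0.784).

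Without Wnt3a, FASN read 5.43, 5.77 and 5.72 with no transfection, 5.70, 5.72 and 5.39 with control siRNA, 5.11, 5.05 and 5.01 with β-catenin siRNA, and 5.32, 5.20 and 4.25 with FZD8_CRD. With Wnt3a, FASN read 5.24, 5.05 and 5.46 with no transfection, 5.11, 5.03 and 5.04 with control siRNA, 4.58, 4.79 and 4.87 with β-catenin siRNA, and 3.87, 3.93 and 3.99 with FZD8_CRD. The arrays with FZD8_CRD and Wnt3a were lowest, array 3 of FZD8_CRD stood near them, and arrays 1 and 2 of FZD8_CRD lay within the range without transfection. FASN was 2.03-fold lower with FZD8_CRD, at -1.02 (SE 0.13, adjusted p = 2.02e-06), and differed by -0.43 (SE 0.13, adjusted p = 0.0219) with β-catenin siRNA and by -0.11 (adjusted p = 0.564) with control siRNA. With Wnt3a in FZD8_CRD cells it differed by -0.99 (SE 0.18, adjusted p = 0.00318), with -1.45, -1.26 and -0.26 in slides 1, 2 and 3. The FASN response to Wnt3a differed between FZD8_CRD and no FZD8_CRD by -0.60 at an unadjusted p of 0.0323 and an adjusted p of 0.334.

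ELOVL6 lengthens palmitate, SCD puts in the first double bond, and FADS1 and FADS2 are the desaturases of polyunsaturated fatty acids. SCD and FADS1 were chosen for a full account after their values were seen. ELOVL6 fell with β-catenin siRNA (-0.29, adjusted p = 0.0225) and gave 0.11 (adjusted p = 0.327) with FZD8_CRD. Without Wnt3a, SCD read 1.95, 1.90 and 2.14 with no transfection, 2.04, 1.96 and 2.04 with control siRNA, 1.45, 1.48 and 1.59 with β-catenin siRNA, and 1.54, 1.65 and 1.71 with FZD8_CRD. With Wnt3a, SCD read 2.14, 2.07 and 2.14 with no transfection, 1.88, 1.90 and 1.97 with control siRNA, 1.28, 1.55 and 1.69 with β-catenin siRNA, and 1.33, 1.64 and 1.76 with FZD8_CRD. The arrays with β-catenin siRNA all lay under those with control siRNA, and those with FZD8_CRD all under those without transfection. SCD differed by -0.46 (SE 0.072, adjusted p = 0.000102) with β-catenin siRNA and by -0.45 (SE 0.072, adjusted p = 2.6e-05) with FZD8_CRD, and in no Wnt3a response did it pass the test.

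FADS1 and FADS2 lie side by side on chromosome 11 and went separate ways with FZD8_CRD, with no call for either under spike-in scaling. Without Wnt3a, FADS1 read 4.21, 4.43 and 4.42 with no transfection, 4.44, 4.55 and 4.39 with control siRNA, 4.07, 4.0 and 3.95 with β-catenin siRNA, and 4.35, 4.35 and 4.24 with FZD8_CRD. With Wnt3a, FADS1 read 4.43, 4.31 and 4.30 with no transfection, 4.24, 4.02 and 4.09 with control siRNA, 4.07, 4.13 and 4.08 with β-catenin siRNA, and 3.92, 3.99 and 4.08 with FZD8_CRD. With control siRNA and with FZD8_CRD the arrays with Wnt3a lay under those without it, and with β-catenin siRNA they lay above, only just in 1 pair. FADS1 fell with Wnt3a in control siRNA (-0.35, SE 0.071, adjusted p = 0.0161), a call that 9 of 22 alternative settings kept, and in FZD8_CRD (-0.32, SE 0.071, adjusted p = 0.0102), and its difference was 0.087 (adjusted p = 0.778) in β-catenin siRNA (-0.041 under spike-in scaling) and -0.0062 (adjusted p = 0.985) without transfection. The difference between the responses with β-catenin siRNA and control siRNA was 0.43, at an unadjusted p of 0.000373 and an adjusted p of 0.296. Between backgrounds FADS1 differed by -0.24 (SE 0.051, adjusted p = 0.00163) with β-catenin siRNA and by -0.19 (SE 0.051, adjusted p = 0.00293) with FZD8_CRD. Under spike-in scaling these were -0.30 (adjusted p = 0.549) and -0.43 (adjusted p = 0.0514), with no call. With β-catenin siRNA the difference was -0.46 (adjusted p = 0.000312) without Wnt3a and -0.023 (adjusted p = 0.936) with it. With FZD8_CRD the difference was -0.040 (adjusted p = 0.693) without Wnt3a and -0.35 (adjusted p = 0.000725) with it.

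Without Wnt3a, FADS2 read 0.34, 0.67 and 0.63 with no transfection, 1.04, 1.02 and 0.86 with control siRNA, 0.90, 0.96 and 0.75 with β-catenin siRNA, and 1.05, 0.98 and 1.49 with FZD8_CRD. With Wnt3a, FADS2 read 0.66, 1.13 and 0.62 with no transfection, 1.01, 1.20 and 1.16 with control siRNA, 1.31, 1.13 and 0.99 with β-catenin siRNA, and 1.68, 1.55 and 1.36 with FZD8_CRD. Untreated cells without transfection were lowest on average and FZD8_CRD with Wnt3a highest, and array 2 of Wnt3a without transfection stood above the other arrays without transfection and overlapped with FZD8_CRD. FADS2 was 1.6-fold higher with FZD8_CRD, at 0.68 (SE 0.10, adjusted p = 1.25e-05), and 1.29-fold higher with control siRNA, at 0.37 (SE 0.10, adjusted p = 0.00822). Under spike-in scaling these were 0.44 (adjusted p = 0.0724) and 0.37 (adjusted p = 0.348), with no call. With β-catenin siRNA FADS2 differed by -0.042 (adjusted p = 0.859).

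**Figure D4:**
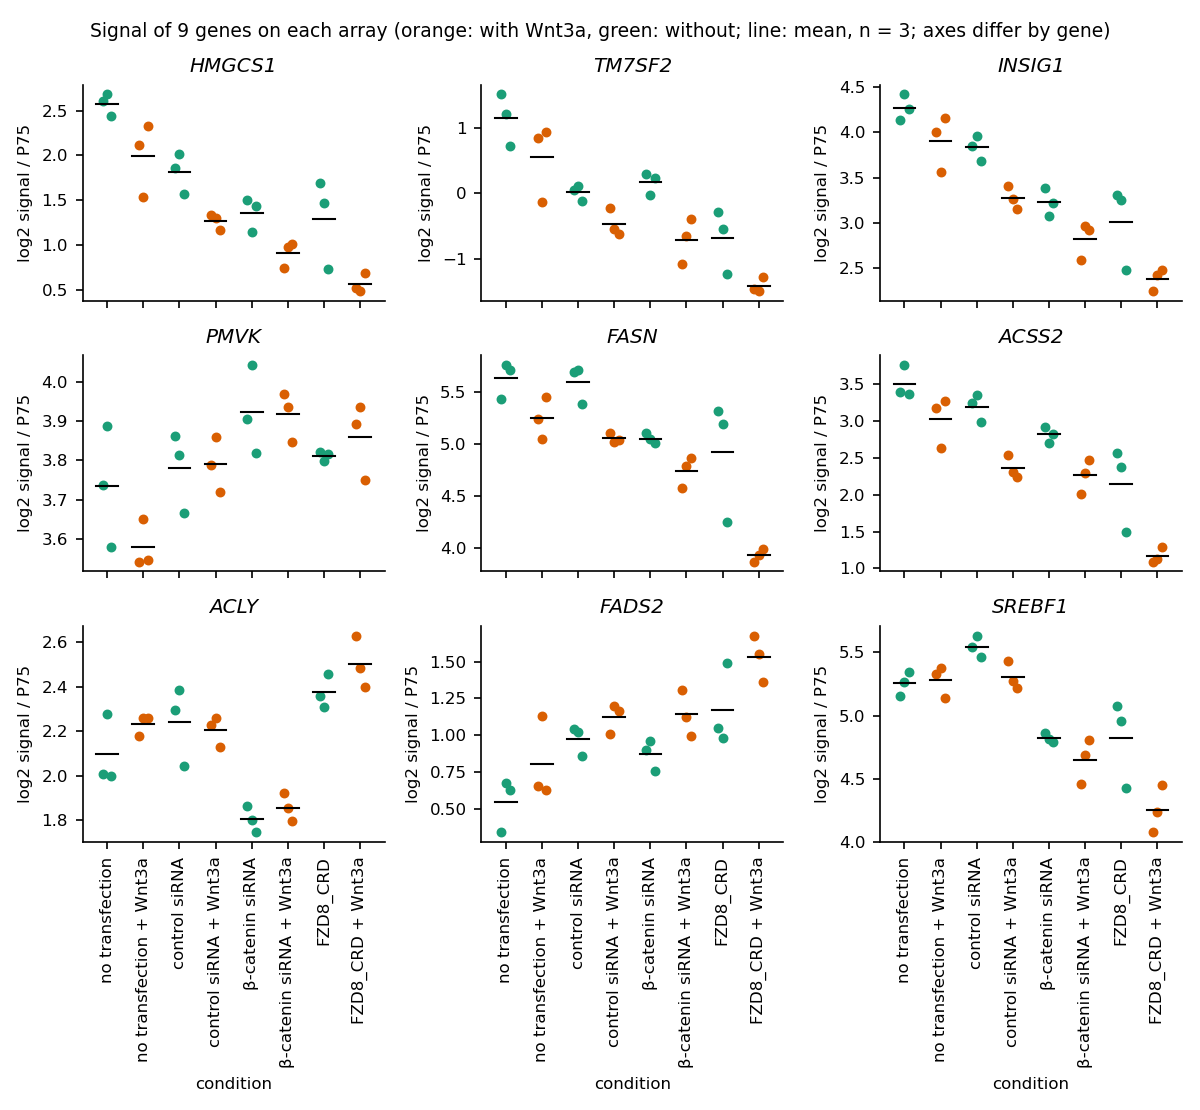
Log2 signal relative to the array's 75th percentile of 9 members in the 8 conditions, with 1 point per array and a line at the mean (n = 3). HMGCS1, TM7SF2, INSIG1 and ACSS2 are lowest with FZD8_CRD and Wnt3a, FADS2 is highest there, and ACLY and SREBF1 are low with β-catenin siRNA.

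SREBF1 encodes the SREBP-1 factors, SREBF2 encodes SREBP-2, INSIG1 holds the SREBPs back when sterols are plentiful and is itself one of their targets, and STARD4 carries cholesterol between membranes. The sterol regulatory element TCACNCCAC was found in 2.78% of the members' windows, in SREBF2 alone, and in 1.13% of all windows. The promoter of SREBF2 (chr22:41832855-41833104, plus strand, GRCh38.p14, RefSeq) is shown with that element in capitals, and that of INSIG1 (chr7:155297628-155297877, plus strand) with its NF-Y box in capitals.
SREBF2: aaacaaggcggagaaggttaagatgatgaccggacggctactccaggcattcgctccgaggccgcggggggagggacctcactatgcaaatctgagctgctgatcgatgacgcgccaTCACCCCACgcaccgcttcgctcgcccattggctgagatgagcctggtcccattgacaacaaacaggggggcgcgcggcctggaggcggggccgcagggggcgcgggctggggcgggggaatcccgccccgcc
INSIG1: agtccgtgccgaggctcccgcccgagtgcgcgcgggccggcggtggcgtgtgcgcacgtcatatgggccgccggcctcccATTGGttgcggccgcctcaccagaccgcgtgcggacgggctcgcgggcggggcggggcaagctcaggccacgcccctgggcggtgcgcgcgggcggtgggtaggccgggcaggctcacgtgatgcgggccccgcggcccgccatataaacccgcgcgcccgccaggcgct

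Without Wnt3a, SREBF1 read 5.16, 5.26 and 5.35 with no transfection, 5.54, 5.63 and 5.46 with control siRNA, 4.86, 4.82 and 4.79 with β-catenin siRNA, and 5.07, 4.96 and 4.43 with FZD8_CRD. With Wnt3a, SREBF1 read 5.33, 5.38 and 5.14 with no transfection, 5.43, 5.28 and 5.22 with control siRNA, 4.46, 4.69 and 4.80 with β-catenin siRNA, and 4.08, 4.24 and 4.45 with FZD8_CRD. SREBF1 with β-catenin siRNA lay under SREBF1 with control siRNA in all arrays, and with FZD8_CRD under it without transfection in all arrays. SREBF1 fell 1.61-fold with β-catenin siRNA, at -0.69 (SE 0.092, adjusted p = 1.59e-05), and 1.66-fold with FZD8_CRD, at -0.73 (SE 0.092, adjusted p = 1.62e-06). With Wnt3a in FZD8_CRD cells it differed by -0.57 (adjusted p = 0.0111), with -1.0, -0.72 and 0.018 in slides 1, 2 and 3. A second SREBF1 probe gave -0.12 (adjusted p = 0.403), -0.28 (adjusted p = 0.0126) and 0.064 (adjusted p = 0.886) in these 3 comparisons.

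Without Wnt3a, SREBF2 read 2.55, 2.70 and 2.58 with no transfection, 2.87, 2.92 and 2.75 with control siRNA, 2.46, 2.37 and 2.33 with β-catenin siRNA, and 2.72, 2.70 and 2.16 with FZD8_CRD. With Wnt3a, SREBF2 read 2.62, 2.63 and 2.64 with no transfection, 2.61, 2.51 and 2.38 with control siRNA, 2.30, 2.26 and 2.28 with β-catenin siRNA, and 2.11, 2.01 and 1.96 with FZD8_CRD. Control siRNA without Wnt3a was highest and FZD8_CRD with Wnt3a lowest, and array 3 of FZD8_CRD lay beside the latter. SREBF2 differed by -0.34 (SE 0.074, adjusted p = 0.00225) with β-catenin siRNA, by -0.34 (SE 0.074, adjusted p = 0.000632) with FZD8_CRD and by -0.50 (SE 0.11, adjusted p = 0.00699) with Wnt3a in FZD8_CRD cells. Its difference with FZD8_CRD was -0.085 (adjusted p = 0.555) without Wnt3a and -0.60 (adjusted p = 0.000174) with it. Its Wnt3a response differed between FZD8_CRD and no FZD8_CRD by -0.52, at an unadjusted p of 0.00247 and an adjusted p of 0.147.

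Without Wnt3a, INSIG1 read 4.14, 4.42 and 4.26 with no transfection, 3.85, 3.96 and 3.69 with control siRNA, 3.38, 3.08 and 3.23 with β-catenin siRNA, and 3.31, 3.25 and 2.48 with FZD8_CRD. With Wnt3a, INSIG1 read 4.0, 3.56 and 4.15 with no transfection, 3.41, 3.27 and 3.16 with control siRNA, 2.59, 2.97 and 2.92 with β-catenin siRNA, and 2.25, 2.42 and 2.48 with FZD8_CRD. INSIG1 with FZD8_CRD lay under INSIG1 without transfection in all arrays, and with control siRNA the arrays with Wnt3a lay under those without. INSIG1 was 2.62-fold lower with FZD8_CRD, at -1.39 (SE 0.13, adjusted p = 3.31e-08), and fell with control siRNA (-0.53, SE 0.13, adjusted p = 0.00304) and with β-catenin siRNA (-0.53, SE 0.13, adjusted p = 0.00438). STARD4 was the 1 regulator or transport gene called in no comparison. Without Wnt3a, STARD4 read 0.50, 0.83 and 0.76 with no transfection, 0.55, 0.74 and 0.53 with control siRNA, 0.36, 0.23 and 0.59 with β-catenin siRNA, and 0.71, 0.65 and 0.23 with FZD8_CRD. With Wnt3a, STARD4 read 0.37, 0.32 and 0.76 with no transfection, 0.38, 0.61 and 0.58 with control siRNA, 0.24, 0.27 and 0.22 with β-catenin siRNA, and 0.23, 0.18 and 0.35 with FZD8_CRD. These groups overlapped, and the differences were -0.25 (adjusted p = 0.0675) with β-catenin siRNA and -0.20 (adjusted p = 0.0802) with FZD8_CRD.

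Over the 24 arrays, the members' likeness to their own arm can be described by Pearson's r with the mean of the other members, where the points share conditions and slides. For 16 sterol enzymes r ran from 0.646 (SQLE) to 0.987 (HMGCS1), and PMVK had -0.501. For 6 fatty acid enzymes it ran from 0.517 (ACSS2) to 0.877 (FADS1), ACLY had -0.0087 and FADS2 -0.724. Outside the list, the 10 genes with a symbol most like the mean of the sterol enzymes were DBI (0.98), HCG9, MLIP, SYT12, TMEM170B, WWC1, DIPK1B, ACO1, KCNMB4 and ITGAM (0.954).

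Other genes of the pathways were counted in lists that hold no member, beside the shares of all genes that rose and fell (24.3% and 29.3% with FZD8_CRD, 16.1% and 13.4% with control siRNA, 9.08% and 12.1% with β-catenin siRNA). Of the calls of single genes below, those of MBTPS1, INSIG2, SCAP, LBR and ACAT2, except the fall of ACAT2 with FZD8_CRD, were lost under spike-in scaling, and the rise of MBTPS1 also under quantile normalization. Of 4 genes that handle SREBPs, MBTPS1, a protease that cuts them, fell with β-catenin siRNA (-0.24, adjusted p = 0.000712) with MBTPS2, the next protease (-0.52, adjusted p = 0.000145), which makes 2 falls and 0 rises there. With FZD8_CRD, INSIG2 rose (0.47, adjusted p = 1.51e-06) and SCAP, the escort of the SREBPs, fell (-0.17, adjusted p = 0.0426). MBTPS1 rose with control siRNA (0.16, adjusted p = 0.0104), and the limma fit called 0 of the 4 in any Wnt3a response. Of 7 genes of isoprenoid and early branches, 3 rose and 1 fell with control siRNA and 3 rose and 1 fell with FZD8_CRD, ACAT2 being the fall in each (the list's median with FZD8_CRD was 0.089, and -0.15 under spike-in scaling). Under spike-in scaling the list kept no call with control siRNA and no rise with FZD8_CRD. ACAT2, which joins acetyl-CoA units ahead of HMGCS1, differed by -0.24 (adjusted p = 0.0208) with control siRNA and -0.32 (adjusted p = 0.00127) with FZD8_CRD. It fell with Wnt3a in control siRNA (-0.43, adjusted p = 0.0368) and FZD8_CRD (-0.47, adjusted p = 0.00976). LBR, the sterol reductase that shares a step with TM7SF2, rose with FZD8_CRD (0.46, adjusted p = 2.88e-06) and fell with Wnt3a in FZD8_CRD cells (-0.38, adjusted p = 0.0108).

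Of 8 genes of sterol storage and movement, 3 rose and 5 fell with FZD8_CRD, 3 rose and 4 fell with β-catenin siRNA, and 2 rose and 2 fell with control siRNA. Of all genes 24.3% rose and 29.3% fell with FZD8_CRD, 9.08% and 12.1% with β-catenin siRNA, and 16.1% and 13.4% with control siRNA. Under spike-in scaling this list kept no call with control siRNA, no fall with β-catenin siRNA and no rise with FZD8_CRD. The rises of NPC2 and OSBPL1A with β-catenin siRNA and the falls of STARD3 and SCARB1 with FZD8_CRD were also lost under that scaling. SOAT1, which esterifies cholesterol, fell with β-catenin siRNA (-0.48, adjusted p = 2.46e-06) and rose with FZD8_CRD (0.22, adjusted p = 0.00176), a difference of -0.017 and no call under spike-in scaling. OSBPL1A fell with Wnt3a without transfection (-0.52, adjusted p = 0.0325), with control siRNA (-0.61, adjusted p = 0.0243) and with FZD8_CRD (-0.61, adjusted p = 0.00974), and rose with β-catenin siRNA (0.62, adjusted p = 9.44e-05). Of 6 genes of the oxysterol receptors LXR and their targets, 4 fell with FZD8_CRD, with NR1H3, a receptor gene, at -1.01 (adjusted p = 7.68e-08) and ABCA1, a cholesterol exporter, at -0.44 (adjusted p = 0.000558). NR1H3 also fell with β-catenin siRNA (-0.39, adjusted p = 0.00706). With control siRNA 2 of the 6 rose, among them NR1H2, the other receptor gene (0.32, adjusted p = 0.00411). LPCAT3 fell with Wnt3a in control siRNA (-0.44, adjusted p = 0.0219) and FZD8_CRD (-0.47, adjusted p = 0.0057). The calls of SOAT1, OSBPL1A and LPCAT3 and that of NR1H3 with β-catenin siRNA were lost under spike-in scaling. The 2 LXR rises with control siRNA were lost too. Under it NR1H3 was at -0.44, SOAT1 at -0.54 and OSBPL1A at 0.56 with β-catenin siRNA. With Wnt3a OSBPL1A was at -0.91 without transfection, -0.45 with control siRNA and -0.70 with FZD8_CRD. LPCAT3 was at -0.28 with Wnt3a in control siRNA and at -0.56 in FZD8_CRD.

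Of 23 genes of fatty acid supply and use, 21 were tested. With FZD8_CRD 14 fell and 3 rose (29.3% and 24.3% of all genes), with control siRNA 9 fell and 6 rose (13.4% and 16.1%), and with β-catenin siRNA 4 fell and 3 rose (12.1% and 9.08%). Under spike-in scaling the list kept no rise with either siRNA, and of the falls with β-catenin siRNA only that of SCD5. The falls of SCD5, ELOVL7, HSD17B12, DGAT2 and PPARA with control siRNA were also lost. With FZD8_CRD the rises of FADS3 and ELOVL1 and the fall of SCD5 were lost. The list's median was -0.37 with FZD8_CRD, below 0 under quantile and spike-in scaling as well, beside -0.086 for all genes. MLXIPL, which encodes the glucose-responsive factor ChREBP, fell with FZD8_CRD (-3.01, SE 0.21, adjusted p = 2.03e-09), with control siRNA (-1.14, adjusted p = 0.000339) and with Wnt3a in FZD8_CRD cells (-1.53, adjusted p = 0.0038), and rose with β-catenin siRNA (0.59, adjusted p = 0.0473). ACACB, the mitochondrial counterpart of ACACA, fell with FZD8_CRD (-2.00, adjusted p = 2.59e-09) and with Wnt3a without transfection (-0.91, adjusted p = 0.0129). ACSL1, which activates fatty acids, fell with FZD8_CRD (-1.4, adjusted p = 4.32e-07) and β-catenin siRNA (-0.67, adjusted p = 0.00412), where the desaturase SCD5 (-0.86, adjusted p = 4.61e-08) fell too. The calls of MLXIPL and ACSL1 with β-catenin siRNA were lost under spike-in scaling. With Wnt3a 9 fell and 1 rose in FZD8_CRD cells (3.94% and 4.36% of all genes) and 4 fell without transfection (2.61%). With either siRNA the limma fit called 0, with unadjusted p under 0.05 for 10 with control siRNA and 8 with β-catenin siRNA, beside 14% and 10.4% of all genes. GPAM, an acyltransferase of glycerolipid synthesis, was the rise with Wnt3a in FZD8_CRD cells (1.01, adjusted p = 0.00176). Under spike-in scaling, of these falls with Wnt3a only that of MLXIPL was kept in FZD8_CRD cells and only that of ACACB without transfection. The falls of ELOVL5 and ACSL3 in FZD8_CRD cells were lost under quantile normalization too.

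Markers of proliferation and of cell types moved with the backgrounds, and in bulk samples fewer cells of a type and less RNA per cell cannot be told apart. Of 12 proliferation genes, 12 rose with control siRNA (median 0.93) and 12 with FZD8_CRD (median 1.29), with medians above 0 under quantile and spike-in scaling too, and 1, TOP2A, rose with β-catenin siRNA (0.38, adjusted p = 0.0411, no call under spike-in scaling). Without Wnt3a, their summed level on the log2 scale was 6.42, 6.67 and 6.93 with no transfection, 7.53, 7.45 and 7.6 with control siRNA, 7.45, 7.56 and 7.42 with β-catenin siRNA, and 7.95, 8.05 and 7.78 with FZD8_CRD. With Wnt3a, that sum was 6.75, 7.22 and 6.76 with no transfection, 7.37, 7.57 and 7.53 with control siRNA, 7.92, 7.79 and 7.63 with β-catenin siRNA, and 7.78, 7.77 and 7.69 with FZD8_CRD. The sum was lowest without transfection in every slide, and TYMS was the most abundant gene. In the Wnt3a responses 0 of the 12 were called by limma, with an unadjusted p under 0.05 for 4 without transfection, 0 with control siRNA, 4 with β-catenin siRNA and 2 with FZD8_CRD, beside 21.2%, 14%, 10.4% and 20.5% of all genes.

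Of 8 hepatocyte markers, 8 fell with control siRNA (median -1.82), 7 fell with FZD8_CRD (median -1.45), and 2 rose with β-catenin siRNA (median 0.86), with medians of the same sign under both other scalings. Among all genes 13.4% fell with control siRNA and 29.3% with FZD8_CRD, and 9.08% rose with β-catenin siRNA. Without Wnt3a, the hepatocyte sum was 10.5, 10.1 and 9.6 with no transfection, 8.67, 8.54 and 8.6 with control siRNA, 9.29, 8.89 and 9.22 with β-catenin siRNA, and 8.51, 7.93 and 8.53 with FZD8_CRD. With Wnt3a, the hepatocyte sum was 9.83, 8.62 and 9.83 with no transfection, 8.06, 7.58 and 8.02 with control siRNA, 8.15, 8.61 and 8.95 with β-catenin siRNA, and 8.63, 8.6 and 8.58 with FZD8_CRD. It was highest on average in untreated cells without transfection, and array 2 of Wnt3a without transfection lay under the other arrays without transfection. ALB was the most abundant gene, and no marker was at the floor throughout. With Wnt3a, APOA1 (2.22, adjusted p = 0.0379) and TTR (2.62, adjusted p = 0.0283) rose in FZD8_CRD cells, where 4.36% of all genes rose. In the other backgrounds the limma fit called 0, with unadjusted p under 0.05 for 3 without transfection and 2 with each siRNA. The shares of all genes at that unadjusted p were 21.2% without transfection, 14% with control siRNA and 10.4% with β-catenin siRNA. The hepatocyte medians there were -1.11 without transfection, -0.76 with control siRNA and -0.64 with β-catenin siRNA, with 8, 7 and 8 of the 8 markers below 0, and had the same sign under the other scalings.

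Of 8 mesenchymal markers, 5 rose with Wnt3a without transfection, 4 with control siRNA and 6 with FZD8_CRD (1, 3 and 3 under spike-in scaling), where 2.99%, 1.09% and 4.36% of all genes rose. With β-catenin siRNA 0 were called by limma, and 1 had an unadjusted p under 0.05, beside 10.4% of all genes. COL1A1, a collagen gene, was higher with Wnt3a by 1.86 (adjusted p = 0.00411) without transfection, 2.19 (adjusted p = 0.00275) with control siRNA and 2.65 (adjusted p = 0.000217) with FZD8_CRD. Between backgrounds 6 of these markers fell and 1 rose with β-catenin siRNA, 4 rose and 3 fell with FZD8_CRD (2 and 3 under spike-in scaling), and 1 rose and 3 fell with control siRNA. Among all genes 12.1% fell and 9.08% rose with β-catenin siRNA, 24.3% rose and 29.3% fell with FZD8_CRD, and 16.1% rose and 13.4% fell with control siRNA. Under spike-in scaling the rise of VIM and the falls of COL1A2 and FN1 with control siRNA were lost. With β-catenin siRNA the rise of CDH2 and the fall of ACTA2 were lost under it. Without Wnt3a, the mesenchymal sum, with CDH2 the most abundant gene, was 4.93, 4.84 and 4.71 with no transfection, 4.74, 4.78 and 4.61 with control siRNA, 4.75, 4.78 and 4.69 with β-catenin siRNA, and 4.78, 4.81 and 5.18 with FZD8_CRD. With Wnt3a, the mesenchymal sum was 5.19, 5.43 and 5.05 with no transfection, 5.1, 5.1 and 5.03 with control siRNA, 4.95, 4.89 and 4.84 with β-catenin siRNA, and 5.6, 5.61 and 5.39 with FZD8_CRD. In each background the 3 sums with Wnt3a lay above the 3 without it, and array 3 of FZD8_CRD was the highest of its condition.

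Of 5 biliary or progenitor markers, 4 were tested, and KRT19 was the most abundant. CD24 rose with Wnt3a without transfection (0.47, adjusted p = 0.0247, no call under spike-in scaling). In each siRNA comparison 2 of the 4 fell (1 under quantile normalization), where 13.4% of all genes fell with control siRNA and 12.1% with β-catenin siRNA. Under spike-in scaling neither fall was kept with control siRNA, and that of SOX9 was lost with β-catenin siRNA. With FZD8_CRD KRT19 rose (0.48, adjusted p = 1.95e-05, no call under spike-in scaling) while SOX9 (-0.64, adjusted p = 0.000252) and CD24 (-0.40, adjusted p = 0.000372) fell, where 24.3% of all genes rose and 29.3% fell. Without Wnt3a, their summed level was 8.37, 8.45 and 8.21 with no transfection, 8.47, 8.42 and 8.36 with control siRNA, 8.41, 8.45 and 8.34 with β-catenin siRNA, and 8.43, 8.48 and 8.79 with FZD8_CRD. The biliary sum with Wnt3a added was 8.38, 8.52 and 8.45 with no transfection, 8.4, 8.51 and 8.46 with control siRNA, 8.3, 8.31 and 8.36 with β-catenin siRNA, and 8.81, 8.82 and 8.71 with FZD8_CRD.

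Of 4 markers of other cells, CD68 was the most abundant, fell with control siRNA (-0.53, adjusted p = 0.0214, no call under spike-in scaling) and FZD8_CRD (-0.94, adjusted p = 8.84e-05) and rose with Wnt3a in FZD8_CRD cells (0.90, adjusted p = 0.0229, no call there either), and PECAM1 rose with control siRNA (0.59, adjusted p = 0.0153, no call there either) and fell with β-catenin siRNA (-0.79, adjusted p = 0.00261). Without Wnt3a, the sum of these 4 was 1.98, 1.75 and 1.27 with no transfection, 1.2, 1.23 and 1.13 with control siRNA, 0.965, 0.754 and 0.813 with β-catenin siRNA, and 0.107, 0.0315 and 1.27 with FZD8_CRD. With Wnt3a, the sum of these was 2.03, 1.66 and 1.97 with no transfection, 1.34, 1.35 and 1.41 with control siRNA, 1.03, 1.08 and 1.28 with β-catenin siRNA, and 1.36, 1.21 and 1.35 with FZD8_CRD. Each of these lists had calls with control siRNA and with FZD8_CRD, where sterol and fatty acid enzymes were called too. With Wnt3a in FZD8_CRD cells, where 16 members fell, 0 of the 12 proliferation genes were called. The part of these lists in the result was not tested.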

How the data were processed

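RNA from 24 HepaRG samples, 3 replicates in each of 8 conditions, was measured on one-colour Agilent arrays on 3 slides, with the replicate number equal to the slide. Per the file headers, the scanner files hold background-subtracted intensity values made with Feature Extraction 10.7.1.1, where the notes of the series name 10.7.3.1. The authors deposited log2 values for 25443 probes, centred to a median of 0 per probe. Their medians per array ran from -0.050 to 0.019. Over 25025 probes, r between these and values made here from the scanner files in the same form ran from 0.939 to 0.997 by array, with slopes from 0.864 to 1.01.

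The scanner files were used. Outlier spots were dropped, replicate spots averaged, and signals floored at a share of 0.0143 of the array's 75th percentile (log2 -6.13), to which each array was scaled. A probe was kept if some condition had it well above background in every replicate, which left 31067 probes and 24648 genes, each by its brightest probe. Of 50683 probes, 28174 received a gene symbol through the RefSeq transcript of their annotation (20503 genes), and the others kept their own transcript name. The members had 34 probes, with several for 4 members.

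The fit over the 8 conditions used limma (version 3.58.1, R 4.3.3; eBayes with trend), with 9 comparisons and Benjamini-Hochberg adjustment over all genes of each. The steps were tested on simulated data. Python 3.11.15, numpy 2.4.6 and matplotlib 3.10.9 served for reading and drawing. The members and the lists of other genes were chosen with earlier results of these data known. Values in every array are given for the 15 members with the largest called differences, from TM7SF2 to MVD, for the regulators, and for PMVK, ACLY, ACACA, SCD and FADS1 (EBP in 1 comparison), chosen after their values were seen. Other members are given by differences and counts. Some items are not reported here.

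Arrays of the same replicate number shared deviations from their conditions (mean r 0.384, against -0.191 for other pairs), so a replicate block was tried. Alternatives also covered normalization (quantile, 7 spike-in probes), normexp correction of the median signal with offset 50, the deposited values, the filter (none, or every array), the probe of a gene, outlier spots, a floor of 1 unit, fits of the compared conditions alone, a rule of unadjusted p under 0.01 plus fold (over 1.5 or under 0.7), and arrays or slides left out. With a slide left out, 2 arrays remained per condition. The number of arrays and the spread between them set the precision of every comparison.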

Additional observations from a re-analysis of the deposited data

Results flagged for a closer look

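The response of FADS1 to Wnt3a was above 0 with β-catenin siRNA and below 0 with FZD8_CRD on every slide. Under scaling to spike-in probes the response with β-catenin siRNA was -0.041, of the other sign. The difference between the responses was 0.40 on the log2 scale, and it was not tested.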

How the results depend on the processing

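Counts of called members changed with the settings in most comparisons. For Wnt3a without transfection (2 members called), the count was 0 with quantile normalization, spike-in scaling, the deposited values and a fit of the compared conditions alone. It was 1 with normexp correction, no filter, the mean of a gene's probes, outlier spots kept and a floor of 1 unit, and 4 with the second probe of the members (5.62% of all genes) and with the replicate block (11.5%). For Wnt3a with control siRNA (2 called), it was 0 with spike-in scaling, 1 with quantile normalization, no filter and the deposited values, 6 with the replicate block (4.35% of all genes), and 9 with the compared conditions alone (5.39%). For Wnt3a with FZD8_CRD (16 called), it was 0 with spike-in scaling, where 0.325% of all genes fell. It was also 0 with the compared conditions alone, where 0 of all 24648 genes were called.

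Under spike-in scaling, 3 members fell with control siRNA and 2 with β-catenin siRNA, where 4.18% and 3.61% of all genes fell. The fatty acid median became -0.43 for Wnt3a without transfection, -0.067 with control siRNA and -0.18 with β-catenin siRNA, and -0.35 for FZD8_CRD. The sterol median became -0.20 for Wnt3a with control siRNA and -0.92 for FZD8_CRD. PMVK with FZD8_CRD changed sign to -0.062. The differences in Wnt3a response changed sign too, to -0.22 (sterol) and -0.11 (fatty acid) for β-catenin siRNA and 0.047 (fatty acid) for FZD8_CRD, where the medians of all genes became -0.28 and 0.31.

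With the second probe, SREBF1 gave 0.064 for Wnt3a with FZD8_CRD and ACACA 0.24 for control siRNA, each of the other sign. With a p under 0.01 and a fold change, the counts were 4 for Wnt3a with control siRNA (2.75% of all genes), 2 with β-catenin siRNA (1.27%), 6 for control siRNA (9.4%), 3 for β-catenin siRNA (6.99%), 17 for FZD8_CRD (22.9%) and 2 for its difference in Wnt3a response (2.97%).

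In conditions without Wnt3a alone, 7 members were called for control siRNA (22.3% of all genes) and 9 for β-catenin siRNA (10.6%), with fatty acid medians of 0.064 and -0.43, and of 0.023 for FZD8_CRD. In those with Wnt3a alone, 9 and 5 were called (9.04% and 10.6% of all genes), with fatty acid medians of -0.12 and -0.24, and of -0.25 for FZD8_CRD.

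Leaving out single arrays or a slide, the counts ran from 0 to 19 for Wnt3a without transfection, from 0 to 7 with control siRNA and from 0 to 25 with FZD8_CRD. They ran from 5 to 18 for control siRNA, from 5 to 20 for β-catenin siRNA, from 22 to 27 for FZD8_CRD and from 0 to 9 for its difference in Wnt3a response. The sterol median ran from -0.45 to -0.34 for Wnt3a with control siRNA and from -0.74 to -0.47 for FZD8_CRD.

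Of 79 calls of a member in a comparison, 79 were kept with the replicate block, which added 13 and lost none, 74 with quantile normalization, 72 with the deposited values and 26 with spike-in scaling. The cause of these changes was not tested. The differences between Wnt3a responses, which rest on 4 groups of 3 arrays, have the least precision.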
